A study of Mus musculus with 2 samples.

Results

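A set of 10 immediate early and stress genes was compared between a Dullard-/- and a Dullard+/- mouse embryo at embryonic day (E) 7.5. The genes were Fos, Fosb, Jun, Junb, Egr1, Atf3, Ier2, Ier3, Dusp1 and Myc. They were taken from a list of names that was chosen with earlier results of these data known. The shares of these genes set beside those of all genes below thus describe the list and are no independent check. Every probe on the arrays whose RefSeq accession maps to any of these symbols was used. All 10 genes had a probe, and they are 10 of the 14770 genes that were measured on both arrays. RNA of 1 whole C57BL/6 embryo per genotype was hybridized to 1 array each of an Agilent 1-colour mouse design. Dullard (Ctdnep1) encodes a nuclear envelope phosphatase, and the study made both a null and a LacZ allele of it and wrote Dullard-/- for either. The sources used here do not say which allele the array embryos had. The Dullard+/- embryo has 1 intact copy of Dullard, and no wild-type array was analysed here.

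Immediate early genes are transcribed within minutes of a growth factor or stress signal, from factors that are already in the cell. MAP kinases phosphorylate ETS-family partners of serum response factor (SRF) at the CArG box, and kinases downstream of them, or protein kinase A, phosphorylate CREB at the cyclic AMP response element (CRE). The products are mostly transcription factors: Fos and Jun proteins pair as AP-1, and EGR1 is a zinc finger factor. In the gastrulating mouse embryo the same kinases act downstream of FGF receptors.

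The promoter windows of the genes are shown to set the known response elements beside the values that follow. RefSeq windows of 300 bases, 250 before to 50 after the annotated start on the GRCm38.p6 build, were found for 7 of the 10 genes (Atf3, Dusp1, Fos, Fosb, Ier3, Jun and Junb) and not for Egr1, Ier2 and Myc. The windows printed are those of Fos and Dusp1, which hold matches to the motifs searched, and of Ier3 and Atf3, which lay farthest apart in the comparison of the embryos. Capitals mark motif matches and each window runs 5′ to 3′ along the gene. Fos lies at chr12:85473640-85473939 (+), Dusp1 at chr17:26508423-26508722 (-), Ier3 at chr17:35821463-35821762 (+) and Atf3 at chr1:191183284-191183583 (-).
Fos: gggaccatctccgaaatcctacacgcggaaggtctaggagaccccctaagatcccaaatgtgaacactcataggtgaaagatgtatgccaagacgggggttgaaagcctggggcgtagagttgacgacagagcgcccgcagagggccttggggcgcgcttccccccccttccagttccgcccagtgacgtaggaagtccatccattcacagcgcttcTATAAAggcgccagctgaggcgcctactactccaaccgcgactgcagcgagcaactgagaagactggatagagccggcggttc
Dusp1: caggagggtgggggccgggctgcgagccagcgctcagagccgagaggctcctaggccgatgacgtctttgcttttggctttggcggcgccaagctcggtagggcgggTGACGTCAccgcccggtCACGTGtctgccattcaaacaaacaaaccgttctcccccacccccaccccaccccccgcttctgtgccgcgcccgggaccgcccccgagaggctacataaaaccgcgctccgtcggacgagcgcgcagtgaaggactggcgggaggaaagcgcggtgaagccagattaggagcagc
Ier3: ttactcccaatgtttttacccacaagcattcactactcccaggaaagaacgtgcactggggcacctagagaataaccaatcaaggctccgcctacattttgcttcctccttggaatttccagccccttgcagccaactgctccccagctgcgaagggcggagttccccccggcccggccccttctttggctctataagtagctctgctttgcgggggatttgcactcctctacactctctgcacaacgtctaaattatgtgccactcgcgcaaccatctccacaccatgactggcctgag
Atf3: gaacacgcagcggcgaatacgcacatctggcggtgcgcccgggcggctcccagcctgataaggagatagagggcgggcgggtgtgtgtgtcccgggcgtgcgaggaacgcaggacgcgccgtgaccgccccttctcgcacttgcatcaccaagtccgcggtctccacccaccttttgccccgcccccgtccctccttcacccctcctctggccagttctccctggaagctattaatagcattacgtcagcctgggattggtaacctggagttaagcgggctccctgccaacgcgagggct

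A set of 5 motifs was searched on both strands of these windows. A TATA box (TATAAA) began 33 bases before the start of Fos, and another began at the start of Junb. This motif was held by 13.6% of all 32851 promoter windows of the same length. Dusp1 held a CRE (TGACGTCA) that began 143 bases before the start and an E-box (CACGTG), the site of Myc and Max, that began 126 bases before it, and these matches did not overlap. The CRE was held by 1.79% of all windows and the E-box by 7.15%. Only the full letters TGACGTCA counted as a CRE. Near forms were not counted, and the printed windows hold some, such as tgacgta in Fos, tgacgtct in Dusp1 and ttacgtca in Atf3. The AP-1 site (TGACTCA or TGAGTCA, held by 5.20% of all windows) and the CArG box (1.63%) were in none of the 7 windows, which says only that these letters are not within this distance of the start. The median GC content of the 7 windows was 64.7%, against 52.7% for all windows.

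The values below are spot signals from which the scanner software had subtracted the background, and the log2 fold change is taken after each signal was divided by the 75th percentile of its array. That percentile was 264 for Dullard-/- and 286 for Dullard+/-. Dullard itself gave a signal of 144 in Dullard-/-, against 672 in Dullard+/-, a log2 fold change of -2.11. By the study's description the null allele lacks every exon of Dullard, while for the LacZ allele the place of the probe relative to the deletion is not known here. The median log2 fold change of all 14770 genes was 0.01, and the 5th and 95th percentiles were -0.49 and 0.52. With 1 array per genotype there is no replicate check and no test was run, so a difference describes these embryos and not the genotypes. The precision is limited by there being 1 array per genotype. The error given is the SD between replicate spots of the 40 replicated probes nearest in signal, and the error that the scanner software attaches to each signal was carried through as a second measure. For a gene with several probes the spot SD was divided by the square root of their number. This leaves out disagreement between the probes of a gene, whose SD was 0.29 over 3747 genes with several probes. Both measures leave out the spread between embryos.

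Of the 10 genes, 9 were higher in the Dullard-/- embryo and Atf3 was lower, but Myc and Fosb were level without scaling between the arrays, which left 7 higher. With scaling, 52.0% of all genes were higher. Without it that share was not counted, but the median log2 fold change of all genes was then -0.10. Ier3, Fos and Egr1 were at least 1.5-fold higher, a size that 3.92% of all genes reached, and with a normexp background correction Egr1 alone was. Ier3 alone was at least 2-fold higher, against 0.894% of all genes. Atf3 alone was lower by 1.5-fold or more, against 3.37% of all genes, and it was also past 2-fold, against 0.765%. The median log2 fold change of the 10 genes was 0.39, and 0.44 for the 9 genes without Atf3. Each gene had 1 probe. Fos was spotted 10 times and the other 9 genes once, and all these spots were well above background on both arrays.

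**Figure D1:**
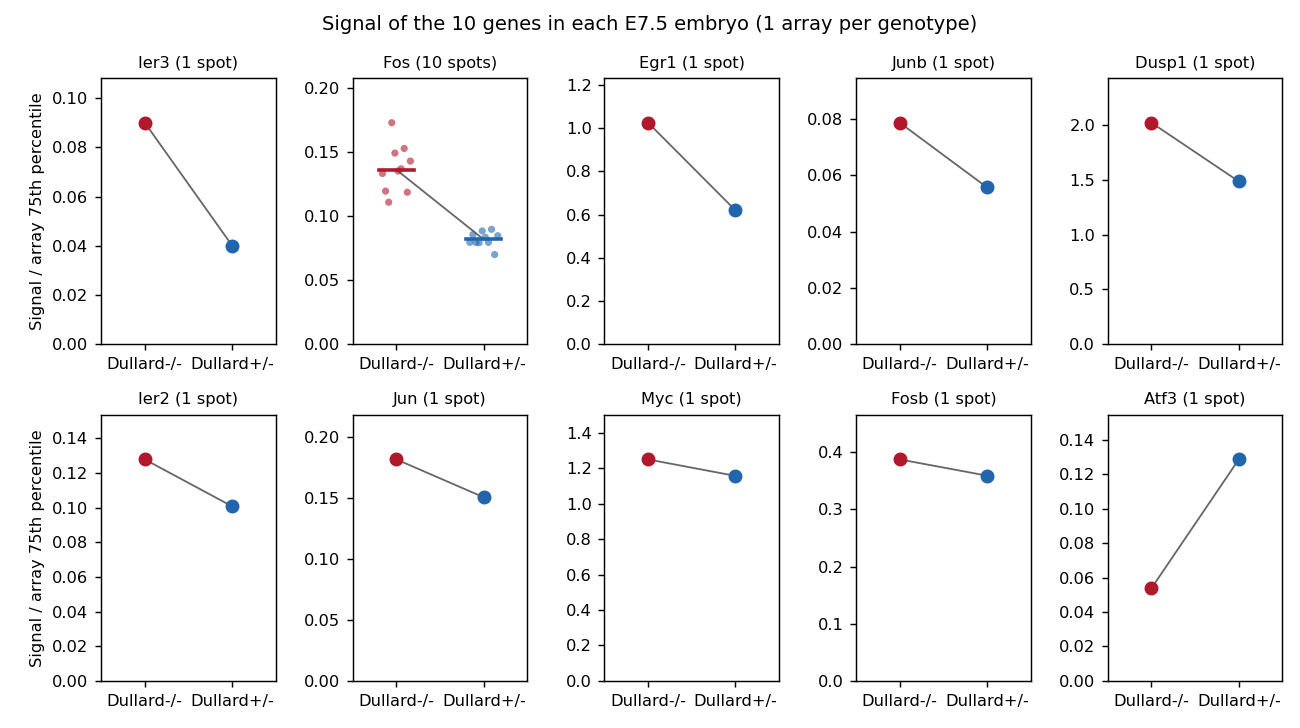
Background-subtracted signal of each of the 10 genes divided by the array's 75th percentile (y axis, linear from 0, own scale per gene) in the Dullard-/- embryo (red) and the Dullard+/- embryo (blue); 1 point per spot, with bars at the mean of the log2 values for Fos. The 10 Fos spots of the Dullard-/- array all lie above those of the Dullard+/- array, Atf3 runs the other way, and Myc and Fosb are nearly level.

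Among the Fos and Jun genes of the 10, Fos, Jun and Junb were higher in the Dullard-/- embryo, and Fosb was level without scaling. Fos, which binds DNA only as the partner of a Jun protein, had signals with a lowest of 29.3, a median of 36.0 and a highest of 45.8 over the 10 spots of the Dullard-/- array, against 20.0, 23.3 and 25.7 over the 10 spots of the Dullard+/- array. The spots of the arrays did not overlap. The log2 fold change of Fos was 0.74, with an SD of 0.18 and an SE of 0.06 over its own spots, which ran over 0.48 to 1.12. These 10 spots are repeats on the same pair of arrays and not further embryos. The background around them had a median of 17.5 for Dullard-/- and 18.3 for Dullard+/-, so the signals stood not far above it. Fos ranked 343 from the highest of the 14770 genes.

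Fosb, the close relative of Fos that is known from induction in neurons, was at a signal of 102.5 in Dullard-/- and 102.7 in Dullard+/-. These values are equal within the spot error, and only the scaling of the arrays set them apart, at a log2 fold change of 0.11 ± 0.09 (SD of replicate spots). Without scaling it was -0.003. The members of the Fos pair on the array thus had values of 0.74 and 0.11, with intervals of 1 SD that did not meet. Under normexp on median signals they had 0.29 and 0.15. No spot SD was taken under that setting, so no intervals are set around these values.

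Jun, which can bind AP-1 sites as a homodimer or with Fos, had a signal of 48.0 in Dullard-/- and 43.0 in Dullard+/- (log2 fold change 0.27 ± 0.14). Junb, which pairs with Fos as well and can restrain Jun, gave a signal of 20.8 in Dullard-/-, against 15.9 in Dullard+/- (0.50 ± 0.24). The Junb spot was dim, with median pixel values before subtraction of 39 in Dullard-/- and 37 in Dullard+/-, each on a background of 16. The Jun and Junb differences were 1.91 and 2.07 times their spot SD and 1.24 and 1.69 times the error of the scanner software.

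Egr1 and Ier3 were further above their error. Egr1, a zinc finger factor that is induced by MAP kinases through SRF and its ETS-family partners, was at a signal of 271 in Dullard-/- and 177 in Dullard+/-. Its log2 fold change was 0.73 ± 0.07, which is 10.5 times the spot SD and 3.55 times the error of the scanner software. Among the 3692 genes of its signal quartile, 1.87% were at least 1.5-fold higher and Egr1 ranked 33 from the highest.

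Ier3, an early response gene linked to cell survival, had a signal of 23.8 in Dullard-/- and 11.5 in Dullard+/-. The log2 fold change was 1.17 ± 0.26, or 2.25-fold, and it ranked 82 from the highest of all genes. Both spots were dim, with median pixel values before subtraction of 41 on a background of 14 in Dullard-/- and of 32 on a background of 16 in Dullard+/-. In the dimmest signal quartile, where Ier3 lies, 2.30% were higher by 2-fold or more and 2.19% were lower by as much. Ier2, a nuclear early response protein, gave a signal of 33.8 in Dullard-/-, against 28.8 in Dullard+/-. Its log2 fold change of 0.34 ± 0.18 was 1.89 times the spot SD.

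**Figure D2:**
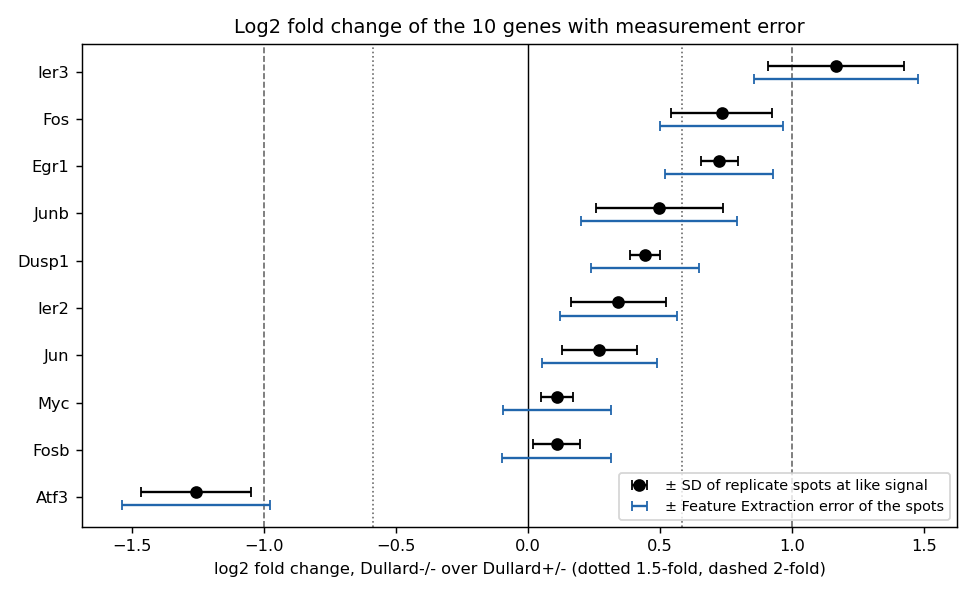
Log2 fold change (x axis), Dullard-/- over Dullard+/-, of each of the 10 genes (y axis), with 1 SD of replicate spots of like signal (black) and the error of the scanner software (blue). Atf3 lies at -1.26, and Ier3, Fos and Egr1 lie past the dotted line of 1.5-fold on the other side.

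Dusp1 and Atf3 are both known as stress-induced genes that dampen the response, and they lay on opposite sides. Dusp1, a nuclear phosphatase that inactivates MAP kinases, was at a signal of 535 in Dullard-/- and 425 in Dullard+/-. Its log2 fold change of 0.44 ± 0.06, or 1.36-fold, was 7.63 times the spot SD but 2.18 times the error of the scanner software. Its signal was in the third signal quartile, and it ranked 144 from the highest of the 3692 genes there. Dusp1 is also the gene whose promoter window held both the full CRE and the E-box.

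Atf3, a CREB-family factor that is induced by many stresses and acts mostly as a repressor, had a signal of 14.2 in Dullard-/- and 36.8 in Dullard+/-. It was the only one of the 10 genes that was lower. The log2 fold change was -1.26 ± 0.21, or 2.39-fold higher in the Dullard+/- embryo, and it ranked 52 from the lowest of the 14770 genes. The median pixel values before subtraction were 33 on a background of 15 in Dullard-/- and 56 on a background of 15.5 in Dullard+/-. Like Ier3 and Fos, it lies in the dimmest signal quartile, where 9.29% of genes were lower by 1.5-fold or more and 8.31% were higher by as much.

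Myc, the growth regulator that pairs with Max at E-boxes, gave a signal of 330.7 in Dullard-/-, against 331.0 in Dullard+/-. The log2 fold change was 0.11 ± 0.06 after scaling and -0.001 without it. Myc and Fosb were thus the members with the least difference, and both were smaller than the SD between different probes of a gene, which was 0.29 over 3747 genes with several probes. Jun was also below that SD.

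**Figure D3:**
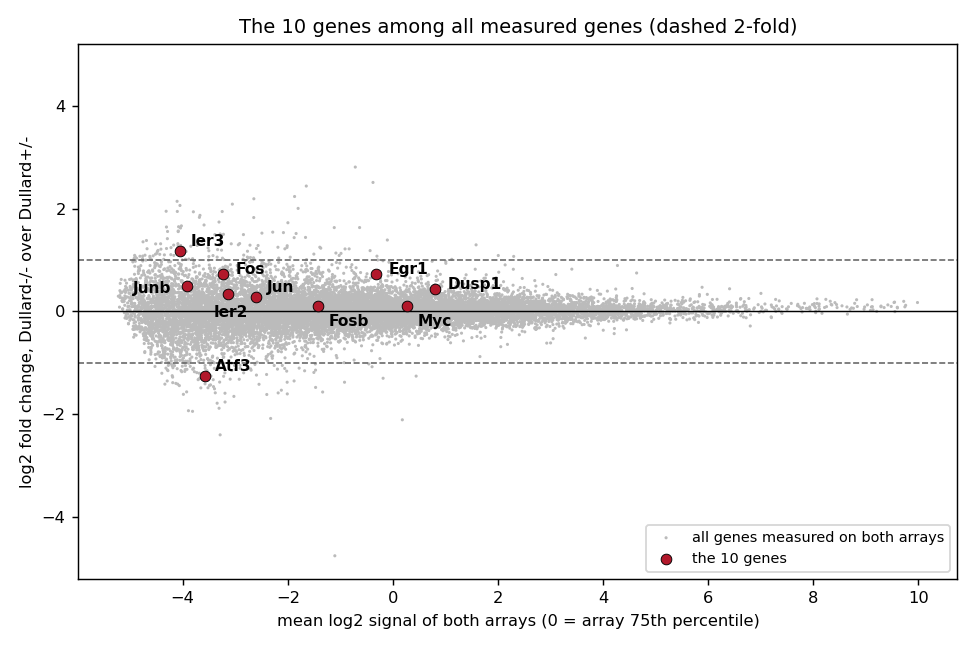
Log2 fold change, Dullard-/- over Dullard+/-, against the mean log2 signal of both arrays for all 14770 measured genes (grey) and the 10 genes (red). The spread of all genes is wider at low signal, where Ier3, Fos and Atf3 lie, and narrower around Egr1, Dusp1 and Myc.

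The measured AP-1 family genes outside the 10 gave smaller differences than Fos in both directions. Of 9 other family members, 5 were measured on both arrays, with 2 higher, 3 lower, none past 1.5-fold and a median of -0.16. Jund, which is expressed without induction in most cells, was at a signal of 3930 in Dullard-/- and 3656 in Dullard+/- (0.22 ± 0.04). Fosl2 stood at -0.16 ± 0.06 over 2 probes, which gave -0.35 and 0.02. The dimerisation partners Batf3 and Jdp2 stood at -0.39 ± 0.18 and -0.28 ± 0.12. Fosl1 and Batf were not well above background on either array.

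Among 36 other immediate early genes, 34 were measured, with 22 higher and 12 lower and a median of 0.12. Of these, 4 (11.8%) were past 1.5-fold towards higher values and 2 (5.88%) towards lower ones, against 3.92% and 3.37% of all genes. In the dimmest signal quartile these shares were 8.31% and 9.29%. Of all genes, 52.0% were higher by any amount. Csrnp1, a nuclear protein known as induced by AXIN1, had a signal of 96.2 in Dullard-/- and 56.2 in Dullard+/- (0.89 ± 0.10). Trib1, a pseudokinase, averaged 97.8 in Dullard-/- and 65.2 in Dullard+/- over 2 probes (0.84 ± 0.08), and the probes gave 0.59 and 1.09. Ccn2 (CTGF), a matricellular target of SRF and YAP, gave a signal of 137 in Dullard-/-, against 87.3 in Dullard+/- (0.76 ± 0.09). Klf2, a zinc finger factor, ran the other way, with a signal of 55.3 in Dullard-/- and 133 in Dullard+/- (-1.16 ± 0.09). It was the only gene of this list past 2-fold among those measured on both arrays. The medians of the 10 genes and of this list were 0.39 and 0.12, and each held a gene more than 2-fold lower.

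The genes that switch the early genes on were near the level of the scaling. All 9 upstream regulators searched were measured, 7 higher and 2 lower, with a median of 0.08 and none past 1.5-fold. The largest was Elk4, an ETS-family partner of SRF, at 0.43 ± 0.05 over 3 probes, which ranged over -0.003 to 0.94 and so disagreed with each other. Elk3, another ETS-family partner, stood at 0.22, Mrtfa, an actin-regulated partner of SRF, at 0.13, and Crem, a CREB relative, at 0.13. The probes of Elk3 ranged over -0.001 to 0.36, and the 2 of Mrtfa gave -0.14 and 0.41. Srf itself was at a signal of 829 in Dullard-/- and 934 in Dullard+/- (-0.10 ± 0.04). Of 16 MAP kinases and MAP kinase kinases 15 were measured, with 5 higher, 10 lower and a median of -0.13. Map2k6, an activator of p38, was at -0.42 ± 0.05, Mapk9 at 0.29 ± 0.06, and the p38 kinases Mapk11 and Mapk12 at -0.24 and -0.23. These are RNA levels and give no phosphorylation.

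The other MAP kinase phosphatases lay on both sides of 0. All 9 were measured, with 5 higher, 4 lower, none past 1.5-fold and a median of 0.07. Dusp2, a nuclear enzyme like Dusp1, had a signal of 194 in Dullard-/- and 146 in Dullard+/- (0.52 ± 0.08). Dusp8 stood at 0.38 ± 0.22, while Dusp4 and Dusp10 stood at -0.39 ± 0.08 and -0.39 ± 0.06. Dusp6, a cytoplasmic phosphatase of ERK that follows FGF signalling in the embryo, gave a signal of 4792 in Dullard-/-, against 4939 in Dullard+/- (0.07 ± 0.04).

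Around Myc, 9 of 11 genes of the Myc and Max network were measured, with 6 higher and 3 lower and a median of 0.09. Mycl, a paralog of Myc, was the only one past 1.5-fold, with a signal of 735 in Dullard-/- and 416 in Dullard+/- (0.93 ± 0.05). Mycn, the paralog needed in the early embryo, was at a signal of 19668 in Dullard-/- and 20482 in Dullard+/- (0.05 ± 0.04). Mlx, the partner of the glucose-sensing Mondo proteins, was at -0.51 ± 0.14, Mlxip, one of these, at 0.44 ± 0.13, and Mnt, a Max-binding repressor, at 0.36 ± 0.06. Of 15 known Myc targets in ribosome synthesis, metabolism and the cell cycle, 5 were higher and 10 lower, no gene was past 1.5-fold and the median was -0.07. The 4 with the largest difference were Ccnd2 (-0.24 ± 0.07), Cad (-0.18 ± 0.05), Nop56 (-0.18 ± 0.03) and Eif4e (-0.14 ± 0.04).

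**Figure D4:**
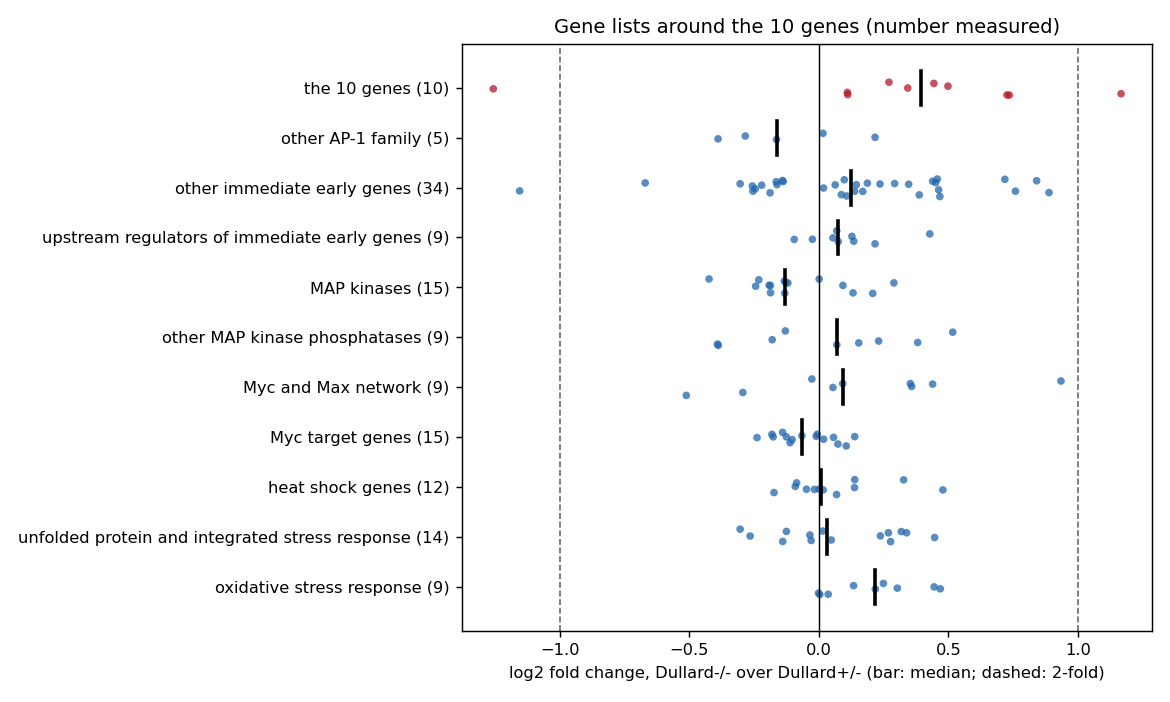
Log2 fold change, Dullard-/- over Dullard+/-, of every measured gene (points) in the 10 genes (red) and in 10 lists around them (blue), with the median as a bar and the number measured in brackets. The medians of the lists other than the 10 genes lie between -0.16 and 0.22.

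Genes of other stress responses showed no difference past 1.5-fold in either direction. Of all genes, 3.92% were higher and 3.37% lower by as much, and in the brightest signal quartile 0.704% and 0.162% were. A count of none therefore says little for the bright genes among these and the other lists. The 12 heat shock genes measured had a median of 0.01, with 7 higher and 5 lower. Hspb1, a small heat shock protein, was at 0.48 ± 0.06, the co-chaperones Dnajb1 and Bag3 at 0.33 ± 0.04 and 0.14 ± 0.05, and Hsf1, the heat shock factor, at -0.17 ± 0.06. All 14 genes of the unfolded protein and integrated stress responses were measured, with 8 higher, 6 lower and a median of 0.03. Ddit4, an inhibitor of mTORC1, had a signal of 911 in Dullard-/- and 722 in Dullard+/- (0.45 ± 0.05), and Chac1 and Asns stood at 0.34 ± 0.20 and 0.32 ± 0.05. Ddit3 (CHOP) was at -0.30 ± 0.23. Chac1, Asns, Ddit3, Trib3 and Atf3 are all known targets of ATF4 and lay on both sides of 0, with Trib3 at 0.02 ± 0.07, and Atf4 itself was at -0.27 ± 0.03.

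The oxidative stress list had the highest median after the 10 genes, 0.22, with 8 of 9 measured genes higher, against 52.0% of all genes. Txnrd1, at 0.004, and Hmox1 count among the 8 and lay near the level of the scaling. Counts of higher and lower genes in this and the other lists were not repeated without scaling. The metallothioneins Mt1 and Mt2, which bind zinc and copper, were at 0.45 ± 0.04 and 0.47 ± 0.04. Mt2 gave a signal of 18356 in Dullard-/-, against 14341 in Dullard+/-. Nqo1 and Gclc, targets of NRF2, were at 0.30 ± 0.08 and 0.25 ± 0.05, whereas Hmox1, another target, was at 0.04 ± 0.04. The 2 probes of Hmox1 gave -0.06 and 0.13.

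Markers of other tissues differed between the embryos as well. In bulk RNA, fewer cells of a type and less RNA per cell cannot be told apart. All 10 gastrula markers, which check the labelled tissue, were well above background in both embryos. T (Brachyury), the marker of the primitive streak, was at a signal of 61.8 in Dullard-/- and 152 in Dullard+/- (-1.19 ± 0.09). Otx2, Eomes and Foxa2, which mark the anterior epiblast, the streak and the definitive endoderm among other tissues, stood at 0.82, 0.76 and 0.63. Of 7 trophoblast markers, 5 were measured, of which 1 was higher and 4 lower, and the summed signal of the 6 on the array, dim probes included, was 2088 in Dullard-/- and 2639 in Dullard+/-. Prl3d1, the placental lactogen of giant cells, was at 1.07 ± 0.21, and Ascl2, of the ectoplacental cone, at -0.74 ± 0.09. Tpbpa, the defining marker of spongiotrophoblast, was not well above background on either array.

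Blood and decidua of the mother can adhere to an embryo at this age. Of 13 blood markers, 4 were measured on both arrays, and the summed signal of the 12 on the array, dim ones included, was 279 in Dullard-/- and 654 in Dullard+/-. The alpha globins Hba-a1 and Hba-a2 had log2 fold changes of -0.95 ± 0.08 and -1.38 ± 0.08. Whether globin RNA came from the mother or from blood cells of the embryo was not tested. The beta globin Hbb-bt was well above background in the Dullard+/- embryo only, where it was at least 7.18-fold higher than in the Dullard-/- embryo. The leukocyte markers Ptprc and Cd74 stood at -0.002 ± 0.14 and 0.40 ± 0.24, Cd52 was well above background in the Dullard+/- embryo only (1.93 in Dullard-/-, 8.16 in Dullard+/-, at least 1.04-fold higher in Dullard+/-), and Lyz2, S100a8, S100a9 and Tyrobp were not well above background on either array. Of 8 decidua markers, 3 were measured (Pgr at -0.55 ± 0.22, Hand2 at 0.39 ± 0.30 and Cryab at 0.05 ± 0.05). The summed signal of all 8, dim ones included, was 368 in Dullard-/- and 389 in Dullard+/-. Cryab alone gave 309 and 342 of these sums. Like the sums of the trophoblast and blood markers, they were not scaled between the arrays. Hoxa11 was well above background in the Dullard-/- embryo only, at least 3.64-fold higher, and the defining decidual prolactin Prl8a2 was not well above background on either array. The part of any of these tissues in the values of the 10 genes was not tested.

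**Figure D5:**
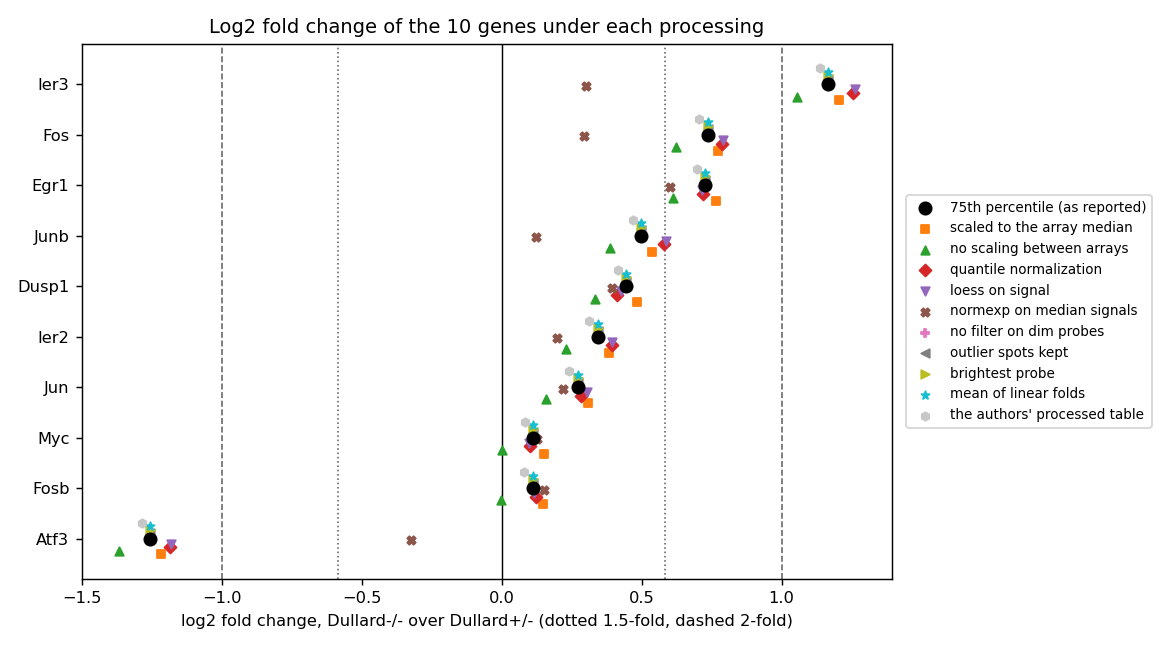
Log2 fold change (x axis), Dullard-/- over Dullard+/-, of the 10 genes (y axis) as reported (black circles) and under 10 other ways of processing the arrays. Ier3, Fos and Atf3 lie nearest to 0 with normexp on median signals, Egr1 lies past 1.5-fold in all of them, and Myc and Fosb are at 0 without scaling.

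Of the alternatives tried, only the normexp setting brought Ier3, Fos and Atf3 under 1.5-fold, and Egr1 stayed past it. That setting starts from the median pixel values, corrects the background in another way and adds an offset of 50 to every signal, and these changes were not tried apart. Adding an equal amount to both signals draws a fold change towards 0, and more so for dim spots. The offset exceeds the reported signals of Ier3, Fos and Atf3 (11.5 to 36.8) and lies below those of Egr1 (177 and 271). The setting thus does not treat these genes alike. With normexp the log2 fold changes were 0.30 for Ier3, 0.29 for Fos and -0.32 for Atf3, and none of these was past 1.5-fold. Egr1 stood at 0.60 with that correction and at 0.60 to 0.76 over all 10 alternatives. The direction of 8 of the 10 genes was the same under every alternative, and that of Myc and Fosb was not, since both were below 0 without scaling.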

How the data were processed

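RNA of 1 Dullard-/- and 1 Dullard+/- embryo was hybridized to 1 array each, on the same slide and in the same scan, so the slide could not be a block. The labels and the study's methods name different amplification kits and RNA inputs. The authors deposited scanner files (Agilent Feature Extraction 10.10) whose spot intensity is background-subtracted, and a processed intensity table, which equals these signals times 1 constant per array. The basis of these constants is not stated in the sources read.

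Symbols came from RefSeq accessions (GRCm38.p6 table), which named 30235 of 43020 non-control spots. Spots marked as outliers on either array (206) were left out, spots of a probe were averaged on the log2 scale, and a gene's value averages those of its probes that both arrays measured well above background. A lower bound takes the dim array at the higher of its lowest signal well above background and the probe's own. All genes named from the other lists were the 4 with the largest difference and any past 2-fold, except Srf, Dusp6, Mycn, Atf4, Trib3, Hmox1, Cd52, Hbb-bt, Hoxa11 and the genes named as not above background, which were chosen after their values were seen. The members and lists were chosen with earlier results of these data known. The steps were tested on simulated arrays. In all, 10 alternatives were tried: scaling to the median, no scaling, quantile, loess (span 0.3), normexp (offset 50), no filter on dim probes, outlier spots kept, the brightest probe, the mean of linear folds and the processed table. The planned comparison of protein sequences was not made. Python 3.11.15, numpy 2.4.6, pandas 2.3.3, matplotlib 3.10.9, R 4.3.3 and limma 3.58.1 were used.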

Additional observations from a re-analysis of the deposited data

How the results depend on the processing

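No paired analysis was possible because each genotype has 1 array, and for the same reason no array could be left out and no group of 4 or more samples could be searched for outlying values. Since each of the 10 genes has 1 probe, with no outlier mark and well above background, 4 alternatives (no filter on dim probes, outlier spots kept, the brightest probe and the mean of linear folds) could not move them. Under the other 6, their log2 fold changes moved by less than the SD of replicate spots in 51 of 60 cases and by more in 9. Of these 6, scaling to the median, no scaling and the processed table shift every gene by the same amount. They do not test the genes separately, and the median of the 10 genes stayed 0.38 above that of all genes under each. With no scaling between arrays, which moved the median of all genes to -0.10, against 0.01 as reported, 7 of the 10 genes were higher and 782 genes were at least 1.5-fold lower, against 498. With normexp on median signals the median of the 10 genes was 0.21, 1 (Egr1) stayed at least 1.5-fold higher, and past 2-fold there were 0 higher and 0 lower. Of all genes, 11 were then higher and 6 lower by 2-fold, and 96 higher and 34 lower by 1.5-fold, against 132, 113, 579 and 498 as reported. Without the filter on dim probes, 20281 genes entered, of which 484 were higher and 778 lower by 2-fold, and 1215 higher and 1737 lower by 1.5-fold. Scaling to the median, quantile, loess and the processed table moved the median of the 10 genes by less than the spot SD. Junb reached 1.5-fold with loess, at 0.59, but fell to 0.12 with normexp on median signals, against 0.50 as reported. Signals near the background limit the values of Ier3, Junb, Atf3, Fos and Ier2.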
